A study of Homo sapiens with 6 samples.

Results

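S100A2 and 9 other S100A genes were compared between spinophilin-silenced and control cells of SUM159, a breast cancer cell line that serves as a model of the basal-like subtype. The silenced cells carried a stably integrated lentiviral shRNA against spinophilin, a scaffold protein that binds protein phosphatase 1 and actin. The control cells carried a scrambled shRNA delivered in the same way, and both were selected with puromycin. Each group was measured on 3 Affymetrix Human Gene 2.0 ST arrays, labelled 1, 2 and 2d, which the study calls independent biological replicates. The sources used here do not say what the letter d marks, whether a group rests on more than 1 transduction, or whether its cells were a pool or a clone. The 10 genes (S100A2, S100A3, S100A4, S100A6, S100A8, S100A9, S100A10, S100A11, S100A13 and S100A16) are a family group built around S100A2, which was selected on its measured difference between silenced and control cells. For that reason the differences of these genes are given below as a description and without p-values. All 10 had a named row, called a transcript cluster, in the value table of 53617 transcript clusters, of which 16098 carried 1 gene symbol and stood for 14884 genes. Each of the 10 had a single row, so no choice between rows was needed.

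S100 proteins are small calcium-binding proteins with a pair of EF-hand motifs, the helix-loop-helix folds that hold a calcium ion. Most of them form dimers, open a binding surface when calcium enters, and then attach to partner proteins such as annexins, non-muscle myosin or p53. Most of the genes lie in a cluster on the long arm of chromosome 1, beside the genes of the cornified envelope of skin. In epithelia S100A2 is a product of basal cells and is regarded as a candidate tumor suppressor of the breast, while S100A4 is known for its link with metastasis and S100A8 and S100A9 for inflammation.

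The data are log2 expression values after robust multi-chip average normalization (RMA), which gives all arrays nearly the same distribution, so each difference is measured against the rest of the array. Array medians were 5.19 to 5.23. These values come without a detection call, and the level of a row also depends on its probes, so levels are compared between arrays and not between genes. For the same reason the marker levels that follow are given list by list and are no test of which cells were used. Of the mesenchymal and basal markers that describe SUM159, 10 had a row, with median levels of 9.96 to 10.15 on the silenced arrays and 10.20 to 10.24 on the control arrays. The 26 measured luminal markers, which would mark the MCF-7 cells also used in the study, had medians of 5.03 to 5.11 on the silenced arrays and 5.07 to 5.28 on the control arrays. Within that list ESR1, the estrogen receptor gene, averaged 4.23 ± 0.19 in silenced cells and 4.34 ± 0.20 in control cells, and the luminal keratin gene KRT18 averaged 8.41 ± 0.24 in silenced cells and 8.44 ± 0.055 in control cells (SD, n = 3 each). The 6 measured markers of blood and stromal cells had medians of 4.17 to 4.21 on the silenced arrays and 4.17 to 4.27 on the control arrays. None of the genes on these 3 marker lists passed an adjusted p under 0.05 in limma, and at an unadjusted p under 0.05 KRT7 and PECAM1 were higher and DCN was lower. The marker genes named here were picked after their values were seen.

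S100A2 was the member that set the groups apart. Its expression was 7.55, 7.50 and 7.58 on silenced arrays 1, 2 and 2d, against 8.08, 8.22 and 8.16 on control arrays 1, 2 and 2d. All silenced arrays lay below all control arrays, and the nearest values of the groups were 0.502 apart. The means were 7.54 ± 0.038 in silenced cells and 8.15 ± 0.069 in control cells (SD, n = 3 each), a difference of -0.61 on the log2 scale (standard error 0.079, 95% confidence interval -0.80 to -0.42), which is 1.53-fold lower. Here and below a log2 fold change is the silenced mean minus the control mean. By the size of its difference S100A2 was at rank 32 among the falls of 11916 measured protein-coding genes and at rank 312 among those of all transcript clusters. These values chose the gene and are not a test of it.

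**Figure D1:**
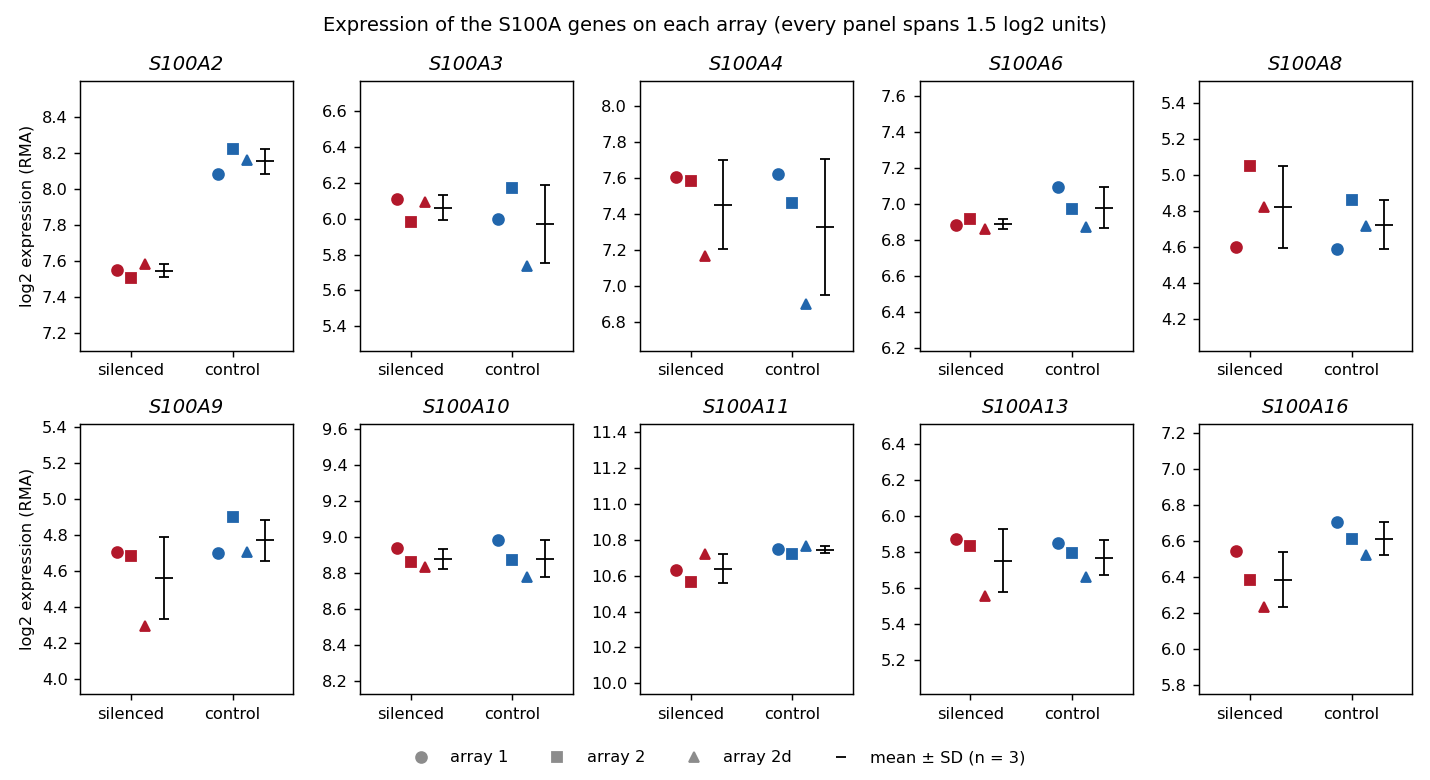
Log2 expression (RMA) of the 10 S100A genes on each array, with spinophilin-silenced arrays in red on the left and control arrays in blue on the right of each panel, marker shape giving the array label, and black bars giving mean ± SD (n = 3 each). The groups are apart for S100A2, with 7.50 to 7.58 on silenced arrays and 8.08 to 8.22 on control arrays, and overlap in the other 9 panels.

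Among the 10 genes, 0 passed an adjusted p under 0.05 in limma, against 0.205% of all transcript clusters. An unadjusted p under 0.05 was met by S100A2 alone, against 7.39% of all transcript clusters. S100A2 alone also had a difference of 1.5-fold or more at an unadjusted p under 0.05 from limma, as had 1.33% of all transcript clusters. The study's methods used the same fold and p thresholds with another test and do not say whether that p was adjusted. S100A2 was the 1 member with all silenced arrays below all control arrays, as were 6.27% of all transcript clusters. No member had all silenced arrays above all control arrays, as had 6.43% of all transcript clusters. Since the group was built around S100A2 on this same contrast, nothing is read from these shares.

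The stretch before the outermost annotated start of S100A2 is shown beside that of its neighbour S100A3, because these were the only members whose 250 bases before a start held the letters TGANTCA, the core of the AP-1 motif (the binding site of JUN and FOS proteins), searched on both strands. Both sequences are from RefSeq on GRCh38.p14, on the minus strand of chromosome 1, at chr1:153565845-153566094 for S100A2 and chr1:153549259-153549508 for S100A3. They are printed from 5′ to 3′ with the last base next to the start and the motif in capitals.
S100A2: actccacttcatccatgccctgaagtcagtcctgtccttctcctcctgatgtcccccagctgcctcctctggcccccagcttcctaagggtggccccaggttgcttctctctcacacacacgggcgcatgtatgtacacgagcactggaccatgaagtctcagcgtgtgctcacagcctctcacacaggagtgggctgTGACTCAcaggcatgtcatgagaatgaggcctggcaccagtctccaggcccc
S100A3: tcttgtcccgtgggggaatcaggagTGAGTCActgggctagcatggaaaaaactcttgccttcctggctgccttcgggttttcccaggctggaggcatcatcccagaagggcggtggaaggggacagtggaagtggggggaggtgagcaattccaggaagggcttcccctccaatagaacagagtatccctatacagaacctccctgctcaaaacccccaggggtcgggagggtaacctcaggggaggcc
The motif ended 46 bases before the start in S100A2 and 219 bases before it in S100A3. Windows were found for all 10 genes, 16 in all, since several genes have more than 1 annotated start, and the second window of S100A2 did not hold the motif. Of 34941 such windows in the whole table, 6.59% held it. The letters TATAAA, the TATA box, stood on either strand in 5 of the 16 member windows and in 10.8% of all windows. Those 5 windows belonged to S100A4, S100A8, S100A9 and S100A13. The SP1 letters GGGCGG stood in 7 of the 16 member windows and in 42.5% of all windows. Those 7 windows belonged to 7 members, S100A2, S100A4 and S100A8 not among them. A match describes these letters and is no evidence of binding, and which start is used in SUM159 was not measured.

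The direct neighbours of S100A2 among the measured genes, S100A3 and S100A16, overlapped between the groups. S100A3, a cysteine-rich member known from the hair cuticle, had 6.11, 5.98 and 6.09 on silenced arrays 1, 2 and 2d, against 5.999, 6.17 and 5.74 on control arrays 1, 2 and 2d. The log2 fold change was 0.09 (95% confidence interval -0.19 to 0.38), with the control arrays spread wider than the silenced arrays. Without control array 2d it was -0.02. S100A16, a widely expressed member on the other side of S100A2, had 6.54, 6.38 and 6.23 on silenced arrays 1, 2 and 2d, against 6.71, 6.61 and 6.52 on control arrays 1, 2 and 2d. Among the members S100A16 came after S100A2 in the size of its difference, with means of 6.39 ± 0.15 in silenced cells and 6.61 ± 0.092 in control cells (SD, n = 3 each) and a log2 fold change of -0.23 (95% confidence interval -0.48 to 0.02). Its groups overlapped only in that silenced array 1 lay above control array 2d. The next genes outwards were S100A4, S100A5 and S100A6 on one side, at log2 fold changes of 0.13, 0.13 and -0.09, and S100A14, S100A13 and S100A1 on the other side, at -0.04, -0.02 and 0.00. In RefSeq order 60 measured genes reach from S100A10 to S100A13, and 50 of them are not members. None of these 50 passed an adjusted p under 0.05 in limma, and at an unadjusted p under 0.05 2 were higher and 0 lower. They had a median log2 fold change of -0.01, with a range from -0.30 for SPRR2F to 0.47 for LCE2C, both of the cornified envelope. Over all transcript clusters the median was -0.00.

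**Figure D2:**
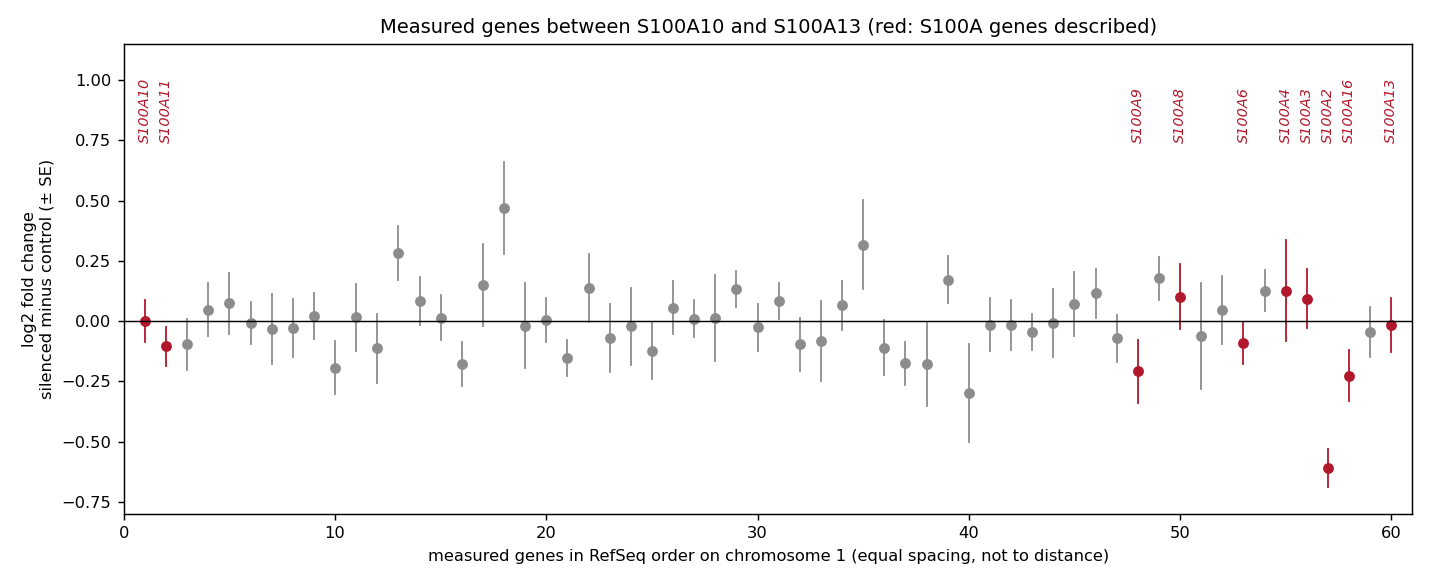
Log2 fold change (spinophilin-silenced minus control, ± standard error) of the 60 measured genes from S100A10 to S100A13, in RefSeq order on chromosome 1 with equal spacing. S100A2 lies at -0.61, below its direct neighbours S100A3 at 0.09 and S100A16 at -0.23.

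The members that bind cytoskeletal and membrane partners all overlapped between the groups, and their confidence intervals included 0. S100A4, the partner of non-muscle myosin, had 7.61, 7.59 and 7.16 on silenced arrays 1, 2 and 2d, against 7.62, 7.46 and 6.90 on control arrays 1, 2 and 2d. It had the widest spread of the members, with an SD of 0.249 in silenced cells and 0.379 in control cells, and array 2d was the lowest of each group. Its log2 fold change was 0.13 with a 95% confidence interval of -0.37 to 0.62, so that a higher level by as much as the S100A2 difference lies within the interval. Without control array 2d its log2 fold change was -0.09. S100A6 (calcyclin) had 6.88, 6.92 and 6.86 on silenced arrays 1, 2 and 2d, against 7.10, 6.97 and 6.87 on control arrays 1, 2 and 2d, a log2 fold change of -0.09 (95% confidence interval -0.30 to 0.11). S100A10 (p11), which has lost calcium binding and holds annexin A2 at the membrane, was nearly equal in means, 8.88 ± 0.054 in silenced cells and 8.88 ± 0.10 in control cells (SD, n = 3 each), with a log2 fold change of -0.00 (95% confidence interval -0.21 to 0.20). S100A11, a partner of annexin A1, had 10.63, 10.56 and 10.72 on silenced arrays 1, 2 and 2d, against 10.75, 10.72 and 10.76 on control arrays 1, 2 and 2d. The groups of S100A11 met at 10.72, and its log2 fold change was -0.11 (95% confidence interval -0.29 to 0.08).

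S100A13, which takes part in the release of FGF1 and interleukin 1 alpha from the cell, had 5.87, 5.83 and 5.56 on silenced arrays 1, 2 and 2d, against 5.85, 5.80 and 5.66 on control arrays 1, 2 and 2d, a log2 fold change of -0.02 (95% confidence interval -0.28 to 0.25). S100A8 and S100A9, which pair to form calprotectin, lay below the array median on every array, which without a detection call does not say whether they were expressed. S100A8 had 4.60, 5.05 and 4.82 on silenced arrays 1, 2 and 2d, against 4.59, 4.86 and 4.72 on control arrays 1, 2 and 2d, and a log2 fold change of 0.10 (95% confidence interval -0.22 to 0.42). S100A9 had 4.71, 4.68 and 4.30 on silenced arrays 1, 2 and 2d, against 4.70, 4.90 and 4.71 on control arrays 1, 2 and 2d, and a log2 fold change of -0.21 (95% confidence interval -0.52 to 0.10). Both genes overlapped between the groups. Without silenced array 2d the log2 fold change of S100A9 was -0.08, and without silenced array 2 that of S100A8 was -0.01. RMA can compress the differences of rows as dim as these.

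The spread within a group was uneven over the members, from an SD of 0.0215 for S100A11 in control cells to 0.379 for S100A4 in control cells, with a median of 0.108, against 0.125 over all transcript clusters. For 5 of the 10 members (S100A4, S100A6, S100A10, S100A13 and S100A16), array 2d was the lowest array both in silenced and in control cells, and the same held for 13.5% of all transcript clusters. This pattern was looked at after the values were seen. S100A2 did not share it, since its lowest arrays were array 2 in silenced cells and array 1 in control cells. Of the 9 members other than S100A2, 3 lay above 0 and 6 below, between -0.23 and 0.13, with a median of -0.02.

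**Figure D3:**
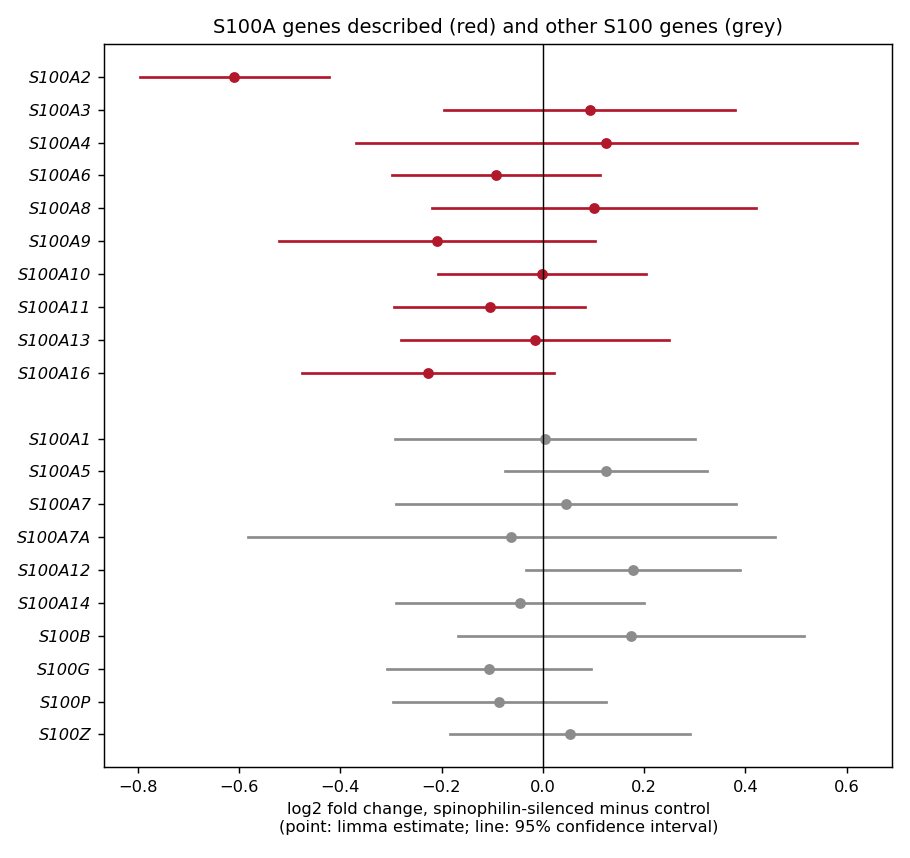
Log2 fold change (spinophilin-silenced minus control) with 95% confidence intervals from limma for the 10 S100A genes described, in red, and for 10 other S100 genes, in grey. The interval of S100A2 runs from -0.80 to -0.42, and the intervals of the other genes include 0.

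The other S100 genes are relatives outside this group, and 10 of them had a row. Adjusted over all transcript clusters, 0 of the 10 passed in limma, and 0 had an unadjusted p under 0.05. Their log2 fold changes lay between -0.11 for S100G, which encodes the vitamin D-dependent calbindin, and 0.18 for S100A12, an inflammatory relative of S100A8 and S100A9 (adjusted p = 0.870 and 0.756 from limma). Between them were S100B at 0.17, S100A5 at 0.13, S100Z at 0.05, S100A7 at 0.05, S100A1 at 0.00, S100A14 at -0.04, S100A7A at -0.06 and S100P at -0.09 on the log2 scale. S100A7 and S100A7A are near-identical copies, so their signals may be shared. The median of the 10 genes was 0.02, against -0.00 over all transcript clusters.

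The measured receptors and binding partners of the S100 proteins were not called as different. Of 12 measured receptors 0 passed an adjusted p under 0.05 in limma, and at an unadjusted p under 0.05 CD36 was higher and CD68 was lower. The 3 receptors with the largest log2 fold changes were CD68 at -0.30, CD36 at 0.29 and MCAM at 0.24 (adjusted p = 0.456, 0.610 and 0.885 from limma). AGER and TLR4, the receptors best known for S100A8 and S100A9, were at -0.03 and -0.09 on the log2 scale, with standard errors of 0.089 and 0.14. Of 49 binding partners on the list only 22 had a named row, and the others were not examined. Of the 22, 0 passed in limma, also at an unadjusted p under 0.05. The largest differences were those of NDRG1 at 0.23, the giant scaffold gene AHNAK2 at -0.23 and the annexin gene ANXA6 at 0.17 (adjusted p = 0.702, 0.715 and 0.749 from limma). ANXA2, the partner of S100A10, had a log2 fold change of 0.02 (standard error 0.12), ANXA1, the partner of S100A11, one of -0.03 (standard error 0.12), and CACYBP, the calcyclin-binding protein gene, one of 0.06 (standard error 0.077). FGF1, the cargo of S100A13, had a log2 fold change of -0.15 (standard error 0.15). AGER, TLR4, ANXA2, ANXA1, CACYBP and FGF1 were named for their partners after the values were seen. The lists had median log2 fold changes of 0.00 for receptors and 0.01 for partners.

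Genes linked with S100A2, as regulators or otherwise, included p53 family members, EGF receptor ligands, TGF-beta signalling genes, AP-1 subunits and Notch genes. Of 29 such genes on the list, 18 had a named row. None passed an adjusted p under 0.05 in limma, and at an unadjusted p under 0.05 EREG, FOSL1 and SMAD2 were lower and PTGS2 was higher. At that unadjusted threshold 3.53% of all transcript clusters were lower and 3.86% higher. Since this list was chosen with earlier results of these data known, nothing is read from the count. The EGF receptor ligand gene EREG had 10.35, 10.37 and 10.11 on silenced arrays 1, 2 and 2d, against 10.77, 10.79 and 10.72 on control arrays 1, 2 and 2d. All silenced arrays of EREG lay below all its control arrays, as for 6.27% of all transcript clusters. The difference was -0.48 on the log2 scale, with a standard error of 0.096 (adjusted p = 0.206 from limma). FOSL1, an AP-1 subunit, had a log2 fold change of -0.33, and PTGS2, the inducible cyclooxygenase gene, one of 0.52 (adjusted p = 0.590 and 0.453 from limma). JUN, the other kind of AP-1 subunit, had a log2 fold change of 0.22, and JUNB one of 0.04 (standard errors 0.099 and 0.10). JUN, JUNB and SMAD2 were named after their values were seen. The median of the 18 genes was -0.04, with 12 of them below 0.

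S100A2 is known as a gene of basal epithelial cells. The list of genes of that kind held 45, of which 25 other than S100A2 had a named row and could be examined. Of these 25, 1 fell and 0 rose at an adjusted p under 0.05 in limma, and the others did not pass. The fall was that of CSTA, which encodes the protease inhibitor cystatin A. It had 6.20, 6.46 and 6.48 on silenced arrays 1, 2 and 2d, against 7.54, 7.52 and 7.81 on control arrays 1, 2 and 2d. The groups did not overlap, and the difference was -1.24 on the log2 scale, with a standard error of 0.12 (adjusted p = 0.0187 from limma). CSTA was picked by the study from these arrays, so its place on the list is not independent evidence of the direction. The study also measured its selected genes by quantitative RT-PCR, with CSTA among its primers, and reports full concordance with the arrays. CSTA did not pass in any fit that left out 1 array, with adjusted p = 0.0626 to 0.101 from limma. Nor did it pass with the replicate label as a block (adjusted p = 0.0603 from limma). With arrays 2 and 2d averaged, its adjusted p was 0.115 from limma. Without moderation of the variances, its adjusted p was 0.305, with lmFit of limma alone. ANXA8, an annexin gene, had 7.55, 7.51 and 7.40 on silenced arrays 1, 2 and 2d, against 8.04, 8.02 and 8.20 on control arrays 1, 2 and 2d. The difference of ANXA8, -0.60 on the log2 scale with a standard error of 0.090, did not pass (adjusted p = 0.0838 from limma), and near-identical copies of ANXA8 may share its signal. The 14-3-3 sigma gene SFN was at -0.33 and the desmoplakin gene DSP at -0.32 on the log2 scale (adjusted p = 0.671 and 0.443 from limma). At an unadjusted p under 0.05, 5 of the 25 genes were lower (CSTA, ANXA8, DSP, SFN and KRT15, the last named after its value was seen) and 0 were higher, against 3.53% of all transcript clusters lower and 3.86% higher. Since the list was chosen with earlier results of these data known, nothing is read from these shares. The basal keratin genes KRT5 and KRT14, which were added after the values were seen, were at 0.23 and 0.27 on the log2 scale, with standard errors of 0.14 and 0.16. The median of the list was -0.08, against -0.00 over all transcript clusters.

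**Figure D4:**
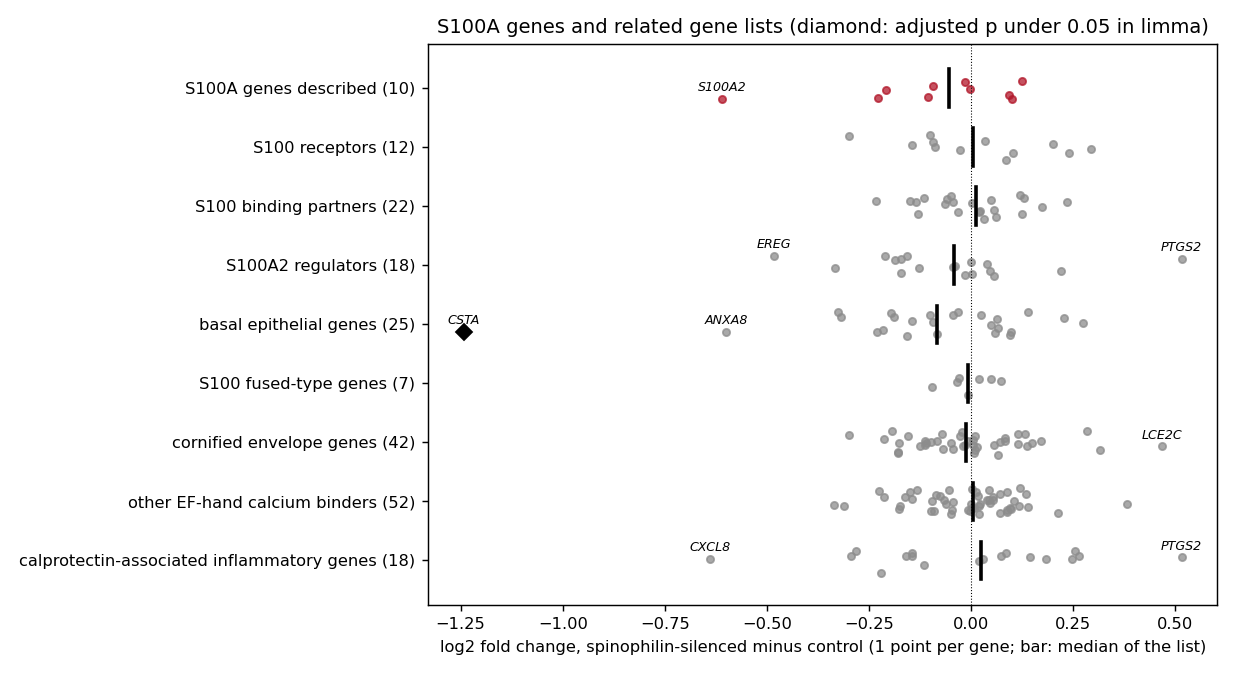
Log2 fold change (spinophilin-silenced minus control) of the 10 S100A genes, in red, and of 8 related gene lists, in grey, with 1 point per gene, the number of measured genes in brackets and a bar at each median. CSTA, drawn as a diamond at -1.24, is the 1 listed gene with an adjusted p under 0.05, and the list medians lie between -0.08 and 0.03.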

How the data were processed

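Total RNA was amplified, labelled with biotin and hybridized by the authors. Per the study's methods and the labels, the deposited log2 expression values were made by the authors in Partek 6.6 with RMA, which corrects background, sets the arrays to one distribution by quantiles, summarises probes by median polish and takes logs, whose base is taken as 2 because the values reach 13.7. The table was used as deposited, without a filter. Rows were named through the platform annotation, with symbols updated by RefSeq gene identifiers (GRCh38.p14), and the brightest row stood for a gene.

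The comparison of silenced with control arrays used limma 3.58.1 (lmFit, eBayes) under R 4.3.3 and no covariates, with Benjamini-Hochberg adjustment over all 53617 transcript clusters. The two-way ANOVA of the methods was not used because its second factor is not named. An exact permutation test of 3 against 3 arrays cannot go below 0.1. P-values refer to the spread among these 6 samples alone, and the number of arrays limits the precision. The spinophilin row itself was not analysed here.

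The members and the 12 gene lists were chosen with earlier results of these data known. Genes named from a list were those past the threshold and the 3 others with the largest absolute change, and exceptions are stated. The fit was first tested on simulated data with known changes. The alternatives covered the replicate label, filters, normalization, variance models, rows per gene and leaving out each array.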

Additional observations from a re-analysis of the deposited data

How the results depend on the processing

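S100A2 was lower in silenced cells under all 20 alternatives, with log2 fold changes of -0.65 to -0.58, the ends of which came from leaving out control array 1 and control array 2. S100A2 was selected for this fall, and all its silenced arrays lay below all its control arrays. Leaving out, averaging or weighting arrays could therefore not reverse its sign, and the shared sign is no test of the fall. The count of members called at an adjusted p under 0.05 in limma was 0, and it was 1 (S100A2) with arrays 2 and 2d as a random block, with either filter on dim transcript clusters, with named transcript clusters only, with each array centred, with a variance trend and with array weights. It was 0 in every fit that left out 1 array (0 to 0). The count of 1 list gene (CSTA) became 0 with the replicate block (adjusted p of CSTA = 0.0603 from limma), with arrays 2 and 2d averaged and with the unmoderated test, and 0 to 0 without 1 array. It became 2, by ANXA8, with the random block, the filter at the array median, named transcript clusters only and the variance trend. Of all transcript clusters 110 were called, and 40 with the replicate block, 12 with arrays 2 and 2d averaged, 223 with the random block (consensus correlation -0.24), 187 above the array median, 0 with the unmoderated test and 15 to 48 without 1 array. Averaging and leaving out arrays leave fewer samples to test. The cause of the other changes was not tested.

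Over all transcript clusters, samples of the same replicate label hardly deviated together from their group means. Their deviations correlated at 0.0118 for array 1, 1.57e-05 for array 2 and 0.0926 for array 2d. Such correlations cannot say whether single genes vary with the label. With the replicate block the log2 fold change of S100A2 stayed at -0.61 (standard error 0.089), and that of S100A4 stayed at 0.13 with a standard error of 0.097 in place of 0.21. The signs of S100A3, S100A4, S100A8, S100A10 and S100A13 changed under at least 1 alternative, and those of S100A6, S100A9, S100A11 and S100A16 did not. Leaving out 1 array gave log2 fold changes of -0.15 to -0.03 for S100A6, -0.28 to -0.08 for S100A9, -0.15 to -0.07 for S100A11, -0.31 to -0.15 for S100A16, -0.05 to 0.05 for S100A10 and -0.08 to 0.08 for S100A13.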

Other observations

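Genes that neighbour the S100 family by structure or place were also measured. The 7 fused-type S100 genes, which carry an S100 domain on a long structural protein such as filaggrin, had log2 fold changes between -0.10 for TCHHL1 and 0.07 for RPTN, with TCHH at 0.05, and 0 passed in limma, also at an unadjusted p under 0.05. Of 42 measured cornified envelope genes 0 passed an adjusted p under 0.05, and 2 were higher and 1 lower at an unadjusted p under 0.05 from limma. The largest differences were LCE2C at 0.47, SPRR1B at 0.32 and SPRR2F at -0.30 on the log2 scale, all with overlapping groups, in families whose near-identical copies may share signal. Of 92 other EF-hand calcium-binding genes on the list 52 were measured, and 0 of these passed, with 2 higher and 2 lower at an unadjusted p under 0.05. LCP1, which encodes the actin-bundling protein L-plastin, had 9.78, 9.74 and 9.83 on silenced arrays 1, 2 and 2d, against 9.40, 9.29 and 9.51 on control arrays 1, 2 and 2d, a difference of 0.38 on the log2 scale with a standard error of 0.088 (adjusted p = 0.299 from limma). The calcium-binding matrix gene SMOC1 had -0.33 and the neuronal calcium sensor gene VSNL1 had -0.31 on the same scale (adjusted p = 0.320 and 0.560 from limma).

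Inflammatory genes that often accompany calprotectin gave no call, with 18 measured, 2 higher and 1 lower at an unadjusted p under 0.05 from limma. The chemokine gene CXCL8 spread widely, with 7.93, 8.55 and 9.14 on silenced arrays 1, 2 and 2d, against 8.68, 8.87 and 9.99 on control arrays 1, 2 and 2d, a log2 fold change of -0.64 with a standard error of 0.41 (adjusted p = 0.828 from limma). PTGS2, which is also on the list of genes linked with S100A2, was at 0.52 and CXCL3 at -0.29 on the log2 scale (adjusted p = 0.453 and 0.580 from limma).

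The named genes of other families whose values over the 6 arrays were most like those of S100A2 were the kinase gene TNIK, PEG10, CCDC54 and MIR4458, with Pearson's r of 0.996, 0.996, 0.991 and 0.991. These correlations are a description over 6 arrays that share the 2 groups. The log2 fold changes of TNIK, PEG10, CCDC54 and MIR4458 were -0.67, -0.22, -0.59 and -0.18, and since likeness to S100A2 over these arrays chose them, the direction was fixed by the choice and they were not tested.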
